A study of Mus musculus with 10 samples.

Results

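A set of 10 secreted matrix genes, 5 of the ADAMTS-like group (Adamtsl1 to Adamtsl5) and 5 ADAMTS proteases (Adamts1, Adamts2, Adamts4, Adamts5 and Adamts9), were followed through the hippocampus of mice with amyloid pathology. They were taken by symbol from a table of 31510 genes, and all 10 were found. The set was chosen by the measured values of Adamtsl3, whose difference between the treatment groups had among the smallest unadjusted p values toward higher levels with irisin, and was filled up with its relatives. That comparison therefore chose the genes, and it is given below as a description only. The animals were male APP/PS1 mice (strain number 34832 in the labels), which carry transgenes for a mutant amyloid precursor protein and a mutant presenilin under the mouse prion protein promoter, and all 10 mice of both groups carried them. At 8 months of age 5 mice received AAV8-GFP and 5 received AAV8-Irisin-FLAG (AAV8-irisin below) by tail vein, a route chosen to make the liver the source of FLAG-tagged irisin. Hippocampi were dissected 2 months later, and polyadenylated RNA of each mouse was sequenced as 1 library. Neither a mouse without transgenes nor an uninjected mouse was among these samples, so levels here refer to transgenic, vector-treated tissue.

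ADAMTS proteases are secreted zinc metalloproteases that cut components of the extracellular matrix. In brain their best known substrates are the lecticans, the proteoglycans (aggrecan, brevican, neurocan and versican) that fill the perineuronal and interstitial matrix and that limit plasticity. ADAMTS-like proteins share the thrombospondin repeats of these proteases but have no protease domain, and several of them bind fibrillin microfibrils, the scaffold that stores latent TGF-beta. A bulk hippocampus holds neurons, glia, vessels and traces of meninges, so fewer cells of a type and less RNA per cell cannot be told apart in any value given here.

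The division between the 2 groups of genes can be read in their coding sequences. The stretch that codes for the zinc-binding site of the catalytic domain is shown for the 5 proteases because it is what the ADAMTS-like genes lack. Sequences are from the GENCODE M21 transcripts (mm10), 5′ to 3′ on the coding strand, with capitals for the codons of the 3 zinc-binding histidines and for the codon between the last of these and the one before it, which reads glycine or asparagine:
Adamts1: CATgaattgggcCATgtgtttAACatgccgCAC
Adamts4: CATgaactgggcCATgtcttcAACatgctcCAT
Adamts9: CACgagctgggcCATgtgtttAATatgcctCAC
Adamts2: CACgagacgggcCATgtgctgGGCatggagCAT
Adamts5: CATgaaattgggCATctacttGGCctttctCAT

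Adamts1, Adamts4 and Adamts9 carry an asparagine codon at the variable place, and Adamts2 and Adamts5 a glycine codon. Adamts1 and Adamts9 share 28 of the 33 bases, whereas Adamts5 and Adamts9 share 18. In the longest coding transcript each stretch is divided between 2 neighbouring exons. In Adamts1 these are exons 3 and 4 (chr16:85799536-85799545 and chr16:85799191-85799213, minus strand), and in Adamts4 also exons 3 and 4 (chr1:171253210-171253219 and chr1:171253893-171253915, plus strand). In Adamts9 they are exons 8 and 9 (chr6:92908477-92908493 and chr6:92905285-92905300, minus strand), in Adamts2 exons 7 and 8 (chr11:50775403-50775419 and chr11:50776119-50776134, plus strand), and in Adamts5 exons 2 and 3 (chr16:85887817-85887826 and chr16:85878015-85878037, minus strand). The motif was found in frame in the longest coding sequence of 18 of the 19 annotated ADAMTS genes, all but Adamts8, and in none of the 5 ADAMTS-like genes. Of 21562 mouse genes with a complete coding sequence, 74 (0.343%) held it. The asparagine codon was allowed after a search with glycine alone had found 13 of the 19. The search required set codons between the histidines too, so the miss in Adamts8 does not show that this protease lacks the histidine codons.

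The coding sequences of the ADAMTS-like genes ran from 485 codons in Adamtsl5 to 1753 in Adamtsl1, with 1706 in Adamtsl3. Adamtsl3 lies on chromosome 7 from 82335694 to 82614450 on the plus strand (ENSMUSG00000070469.12), and its exons cover 7.74 kb of that 278.8 kb. Adamts1 and Adamts5 are neighbours on the minus strand of chromosome 16 with 53.1 kb and 0 protein-coding genes between them. Exons of Adamts9 share bases with 2 genes on the opposite strand, which leaves its value uncertain, since no source used here gives the strand setting of the counting. Exons of Adamtsl3 share no base with another annotated gene.

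All 10 genes were expressed in every hippocampus, and all 10 passed the filter on low values, a normalised count of at least 10 in at least 5 libraries. Divided by exon length, Adamts4 stood highest at 151 ± 13.7 normalised counts per kb of exon (SD, n = 10), and its lowest library at 125. Adamts4 cleaves aggrecan and brevican and is known as a gene of myelinating oligodendrocytes. Adamts1, which cleaves versican and aggrecan, followed at 130 ± 12.9 per kb, and the libraries of these 2 genes overlapped. A gap came next, since the lowest Adamts1 library was at 108 per kb and the highest of Adamtsl4 at 77.6. Adamtsl4, a fibrillin-binding protein whose human gene is linked to displaced lenses, had 54.9 ± 13.0 per kb. Below it Adamts2, the protease that trims the amino-terminal propeptide of fibrillar procollagens, had 42.9 ± 5.03 per kb and Adamtsl1, also called punctin, had 33.7 ± 3.45. Adamts9, another versican-cleaving protease, had 29.3 ± 3.00 per kb, Adamtsl5 had 27.2 ± 5.98, and Adamtsl2, which binds latent TGF-beta binding proteins and fibrillin, had 19.7 ± 1.61. From Adamtsl4 down to Adamtsl2 each gene overlapped the next in the order. The 2 lowest genes were Adamtsl3 at 8.91 ± 2.72 per kb and the aggrecanase Adamts5 at 4.17 ± 0.765 per kb, which overlapped each other. The highest Adamtsl3 library, at 12.9 per kb, lay below the lowest of Adamtsl2, at 17.5 per kb. Mean levels per kb spanned 36.2-fold from Adamts5 to Adamts4. Exon length here is the union over annotated transcripts, so the level of a gene that uses short transcripts is understated.

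**Figure D1:**
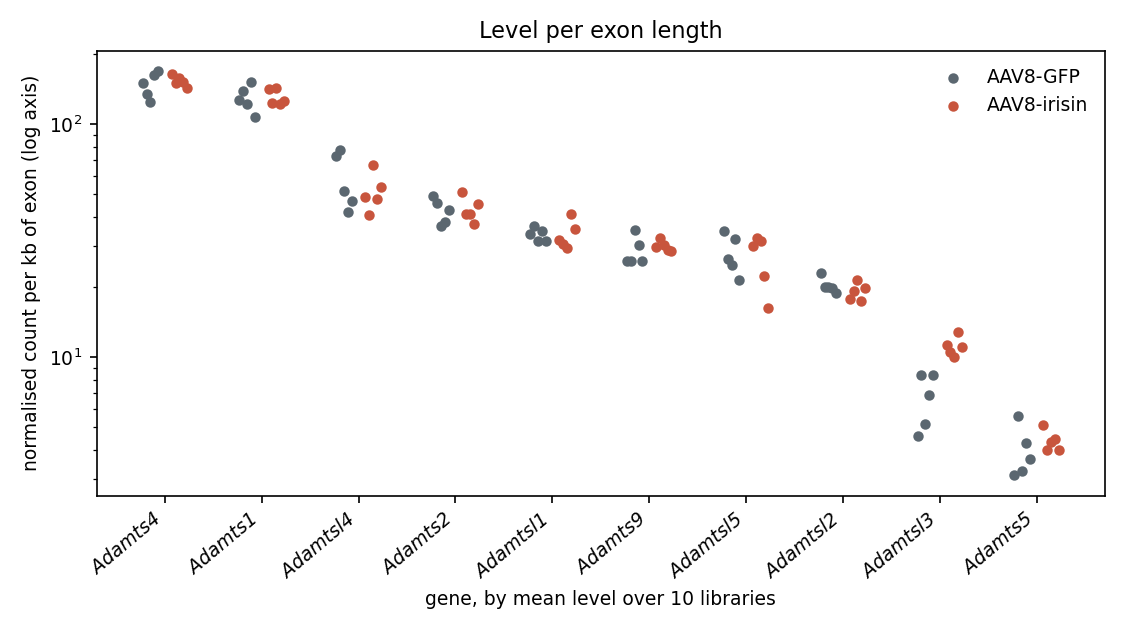
Normalised count per kb of annotated exon (log axis) for each gene, with 1 point per library, AAV8-GFP in grey and AAV8-irisin in red. Genes are ordered by their mean over the 10 libraries, from 151 per kb for Adamts4 to 4.17 per kb for Adamts5.

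The comparison of the treatment groups asks what irisin supplied through the circulation changed in the hippocampus. Over the whole table it found no gene: by limma 0 of 17556 genes (0%) had an adjusted p under 0.05, the smallest adjusted p was 0.942, and 788 genes had an unadjusted p under 0.05. None of the 10 matrix genes was called either, 0 of 10, and because this contrast chose them nothing is read from their count. The median log2 difference (AAV8-irisin minus AAV8-GFP, on log2(value + 1)) was 0.027 over the 10 genes and 0.00099 over all genes tested. Without regard to sign the medians were 0.079 and 0.057. Adamtsl3 was the only one of the 10 whose groups did not overlap. In 0.382% of all genes tested every AAV8-irisin mouse lay above the highest AAV8-GFP mouse, and in 0.422% every one lay below the lowest. A higher mean log2 value in AAV8-irisin was found in 6 of the 10 genes, against 50.5% of all genes tested.

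Adamtsl3, known as punctin-2, is a matrix glycoprotein without protease activity whose human gene has been linked to body height. Its normalised counts were 35.5, 65.2, 40.2, 53.1 and 65.1 in AAV8-GFP mice 1 to 5. In AAV8-irisin mice 1 to 5 they were 86.9, 81.3, 77.7, 99.6 and 85.5. The lowest AAV8-irisin mouse, mouse 3, lay 12.5 normalised counts above the highest AAV8-GFP mouse, mouse 2. The means were 51.8 ± 13.8 and 86.2 ± 8.30 (SD, n = 5 each), a ratio of 1.66, and the log2 difference was 0.76 with a standard error of 0.17. These are the values that chose the gene: its unadjusted p stood 3rd among the 8868 genes with a higher mean and 6th among all genes tested.

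The size of the Adamtsl3 difference depended on the low AAV8-GFP mice. AAV8-GFP mouse 1, the lowest for Adamtsl3, also lay farthest from the rest of its group over all genes, with an SD of log2 deviations of 0.318 against 0.273 to 0.300 in the other 9 libraries, and AAV8-GFP mouse 3, the next lowest for Adamtsl3, was second at 0.300. The log2 difference was 0.64 without mouse 1, 0.68 without mouse 3 and 0.49 (standard error 0.14) without both, an omission chosen after seeing the data. The last value is smaller than the reported one by over 1.5 times, and leaving out the 2 lowest mice of the lower group can only make it smaller. No omission of mice could make the groups overlap, since every AAV8-irisin mouse lay above every AAV8-GFP mouse.

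Several marker lists had means that lay mostly to one side between the groups, although no single gene passed the threshold and the lists were not tested. The mean of AAV8-irisin was the higher one for 9 of 9 tested genes of choroid plexus. Summed normalised counts of the 12 listed genes were 1387 to 1624 in AAV8-GFP and 1686 to 3575 in AAV8-irisin. These sums hold much Kl and Tmem72, which had 914 and 493 in AAV8-irisin mouse 2, where Ttr was only 12.3. Taken singly, each of the 12 genes overlapped between the groups, and Ttr had 10.1 to 48.3 in AAV8-GFP and 12.3 to 1528 in AAV8-irisin. Of the 12 listed genes none was at 0 in all libraries and 2, Slc4a5 and Otx2, were at 0 in at least 1. Their highest library was AAV8-irisin mouse 4, where Ttr, the transthyretin gene of choroid plexus, reached 1528, and Adamtsl3 was highest in the same mouse. The Adamtsl3 difference was 0.71 without mouse 4 and 0.74 without mice 3 and 4, the 2 with most Ttr. Because the groups did not overlap for Adamtsl3, such omissions could not bring its difference to 0 and are given as a description. For meningeal and vascular fibroblasts 8 of 9 genes were higher on average in AAV8-irisin, with sums of 2467 to 3471 and 2578 to 3811 that overlapped, and all 9 were above 0 in every library. Means were also higher in AAV8-irisin for 8 of 8 oligodendrocyte and 6 of 6 ependymal genes, and for 0 of 6 microglial and 0 of 5 blood genes. In the other lists they were higher for 1 of 6 astrocyte, 1 of 4 oligodendrocyte precursor and 2 of 8 mural genes. For endothelium it was 2 of 6, for neurons 4 of 6 and for hippocampal neurons 2 of 6. Over all genes tested the share was 50.5%. Genes of a list are not independent counts. AAV8-GFP mouse 3 was the lowest of the 10 mice for every oligodendrocyte gene, and for every ependymal gene but Tekt4. The part of any of these cell types in the Adamtsl3 difference was not tested.

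**Figure D2:**
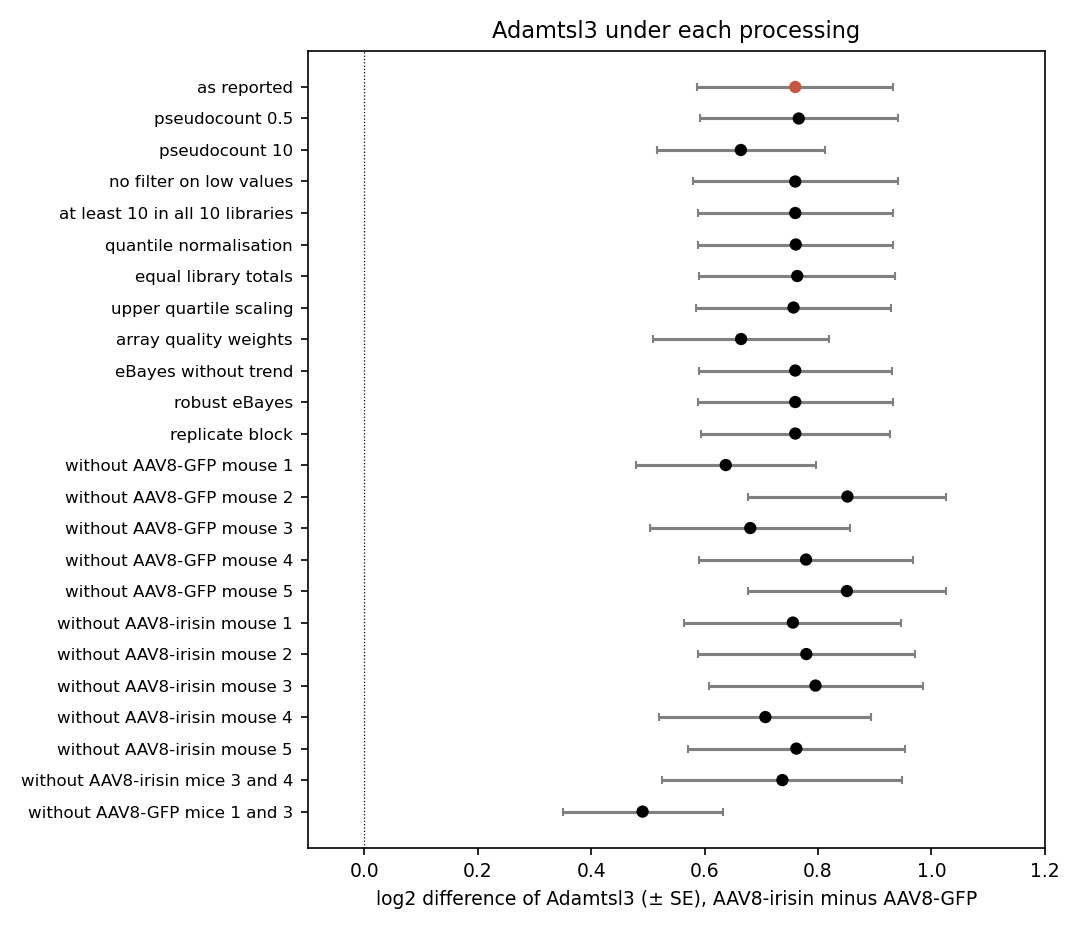
Log2 difference of Adamtsl3 between AAV8-irisin and AAV8-GFP (point) with its standard error (bar) as reported (red) and under 23 other processings or omissions. Every value lies above 0, from 0.49 without AAV8-GFP mice 1 and 3 to 0.85 without AAV8-GFP mouse 2. Omissions of mice could not turn the sign, because the groups did not overlap.

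The other ADAMTS-like genes had group means within the spread between mice. Normalised counts of Adamtsl1 were 433, 468, 401, 443 and 401 in mice 1 to 5 of AAV8-GFP, and 406, 391, 377, 524 and 453 in those of AAV8-irisin. Its highest and its lowest mouse were both in AAV8-irisin (mice 4 and 3), and the log2 difference was −0.0050 with a standard error of 0.088, although the linear mean was slightly higher in AAV8-irisin, 430.1 against 429.3. Adamtsl2 ran from 150.2 to 183 in AAV8-GFP and from 139.8 to 172 in AAV8-irisin, with a log2 difference of −0.081 (standard error 0.091). It was the steadiest of the 10, with a coefficient of variation of 8.17% over all libraries. Mutations of human ADAMTSL2 cause a short-stature disorder of the microfibril matrix.

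Adamtsl4 varied more. AAV8-GFP mice 1 and 2 had 307 and 326 normalised counts, AAV8-GFP mice 3 to 5 had 216, 176 and 197, and the AAV8-irisin mice had 205, 171, 281, 201 and 226. The groups overlapped over most of their range, and the log2 difference of −0.15 (standard error 0.17) was −0.036 when AAV8-GFP mouse 2 was left out and −0.26 when AAV8-GFP mouse 4 was. Adamtsl5, a small heparin- and fibrillin-binding member, had 101 to 164 in AAV8-GFP, and 142, 153, 149, 105 and 76.7 in AAV8-irisin mice 1 to 5. Its log2 difference was −0.096 (standard error 0.19) and became 0.068 without AAV8-irisin mouse 5, the lowest of all 10. Within groups the SD of log2 values was 0.33 for Adamtsl4 and 0.36 for Adamtsl5, against a median of 0.12 over all genes tested.

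Among the proteases the hyalectanases Adamts1, Adamts4, Adamts5 and Adamts9 had slightly higher mean log2 values in AAV8-irisin, each with overlapping groups. Normalised counts of Adamts4 in AAV8-GFP mice 1 to 5 were 722, 646, 602, 781 and 815, and those of AAV8-irisin mice 1 to 5 were 790.1, 726, 757, 728 and 689. All 5 AAV8-irisin mice lay inside the AAV8-GFP range, with means of 713 ± 89.0 and 738 ± 37.9 and a log2 difference of 0.057 (standard error 0.078). The 8 oligodendrocyte genes, each with a higher mean in AAV8-irisin, had summed normalised counts of 101505 to 136366 in AAV8-GFP and 118024 to 141659 in AAV8-irisin, and their part in the Adamts4 values was not tested. Adamts1 had 675, 734, 649, 802 and 571 in AAV8-GFP and 749.6, 656, 757, 647 and 667 in AAV8-irisin, again all inside the AAV8-GFP range. The log2 difference of Adamts1 was 0.026 (standard error 0.084).

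Adamts5, the main aggrecanase of cartilage and the lowest gene of the set, had 33.6, 60.2, 35.1, 46.2 and 39.3 in AAV8-GFP and 54.9, 43.1, 46.5, 48.2 and 43.0 in AAV8-irisin. AAV8-GFP mice 1 and 3 were the lowest of the 10 for Adamts5, as they were for Adamtsl3. Its log2 difference was 0.16 (standard error 0.17), 0.29 when AAV8-GFP mouse 2 was left out, 0.083 when mouse 1 of that group was, and −0.026 when its mice 1 and 3 both were. Adamts9 ran from 388 to 527 in AAV8-GFP, where mouse 3 was highest, and from 428 to 486 in AAV8-irisin, with a log2 difference of 0.076 (standard error 0.087) that was 0.15 without AAV8-GFP mouse 3. Adamts2, the procollagen N-proteinase, ran from 341 to 461 in AAV8-GFP and from 349 to 478 in AAV8-irisin, with a log2 difference of 0.028 (standard error 0.099). AAV8-irisin mouse 1 held its highest value, and without that mouse the difference was −0.035.

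**Figure D3:**
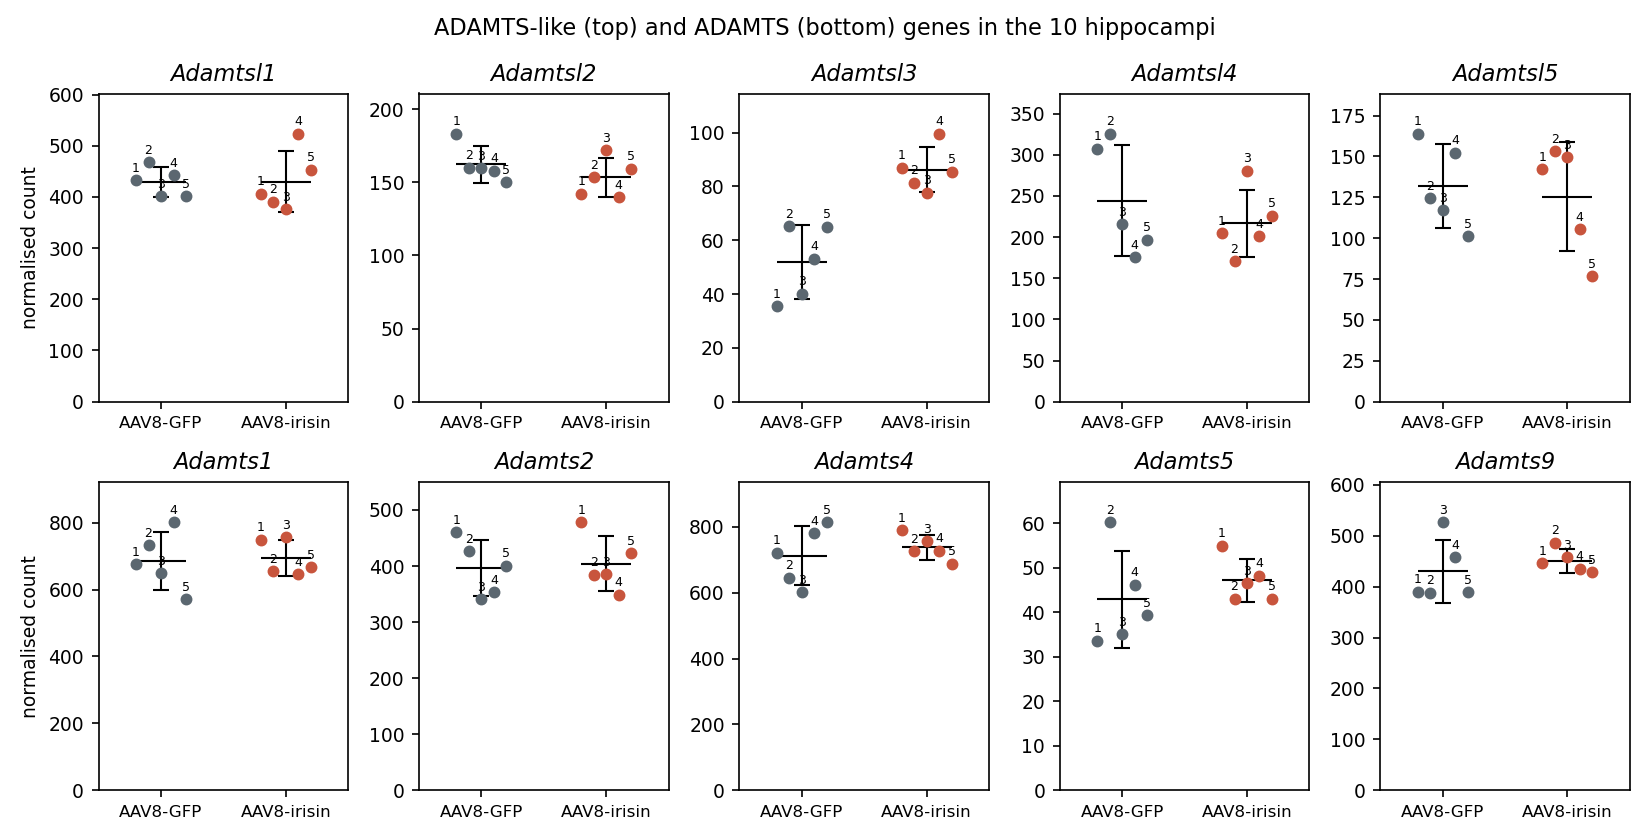
Normalised count of each gene in every mouse (points numbered by mouse), with the mean and SD of each group of 5 in black, on axes that start at 0. Only for Adamtsl3 do the groups separate, 35.5 to 65.2 in AAV8-GFP against 77.7 to 99.6 in AAV8-irisin.

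Variation between mice of the same group was then compared with cell type markers, since it holds no part of the treatment difference. Deviations from the group mean of log2(value + 1) were correlated over the 10 mice between each gene and the mean log2 value of 12 marker lists, with exact permutation over every order of the mice within groups, two-sided. Of 120 relations, 9 had an unadjusted p under 0.05 and 0 passed after Benjamini-Hochberg adjustment, with a smallest adjusted p of 0.527 for Pearson's r, and 0 passed for Spearman's rho. Adamts4 followed the oligodendrocyte list with r = 0.82 (exact permutation p = 0.0317, adjusted p = 0.527) and rho = 0.78 (exact permutation p = 0.0630, adjusted p = 0.874), and r was 0.55 with the 2 mice farthest from the median of that list left out. Its r with ependyma, the ciliated lining of the ventricles, was 0.83 (exact permutation p = 0.0192, adjusted p = 0.527) with rho = 0.78 (exact permutation p = 0.0363, adjusted p = 0.837), and r was 0.63 without the 2 farthest mice. With blood genes its r was 0.73 (exact permutation p = 0.0616, adjusted p = 0.672) with rho = 0.64 (exact permutation p = 0.108, adjusted p = 0.992), and r was 0.77 without the 2 farthest mice. Adamts9 followed mural cells, the pericytes and smooth muscle of vessels, with r = 0.81 (exact permutation p = 0.0133, adjusted p = 0.527) and rho = 0.66 (exact permutation p = 0.0488, adjusted p = 0.837), and r was 0.77 without the 2 farthest mice. Mural cells were not alone. With microglia the r of Adamts9 was 0.71 (exact permutation p = 0.0283, adjusted p = 0.527) with rho = 0.65 (exact permutation p = 0.0317, adjusted p = 0.837). Without the 2 farthest mice that r was 0.45. With astrocytes r was 0.72 (exact permutation p = 0.0901, adjusted p = 0.805) and with endothelium 0.62 (exact permutation p = 0.107, adjusted p = 0.822). AAV8-GFP mouse 3, highest for Adamts9, had the highest summed counts of these lists. Adamtsl3 followed the neuronal list with r = 0.85 (exact permutation p = 0.0351, adjusted p = 0.527) and rho = 0.82 (exact permutation p = 0.0395, adjusted p = 0.837), and r fell to 0.65 without the 2 farthest. The genes of that list did not move together. Within AAV8-GFP, Gad1 and Gad2 were lowest in mice 1 and 3, as Adamtsl3 was. Slc17a7 was highest in those mice, at 56655 and 58469 normalised counts, and Rbfox3 was highest in mouse 1, at 11376. Snap25 and Syt1 were lowest in mouse 1 but not low in mouse 3. Which genes carry the relation was not tested. With the choroid plexus and fibroblast lists Adamtsl3 had r of 0.36 (exact permutation p = 0.116, adjusted p = 0.822) and 0.46 (exact permutation p = 0.164, adjusted p = 0.984). The corresponding rho were 0.39 (exact permutation p = 0.254, adjusted p = 0.992) and 0.47 (exact permutation p = 0.162, adjusted p = 0.992), and r without the 2 farthest mice was 0.28 and 0.078. Adamts5 also followed the neuronal list as a whole, with r = 0.85 (exact permutation p = 0.0164, adjusted p = 0.527) and rho = 0.79 (exact permutation p = 0.0320, adjusted p = 0.837), and r was 0.59 without the 2 farthest. Its r with the fibroblast list was 0.62 (exact permutation p = 0.0470, adjusted p = 0.627) with rho = 0.65 (exact permutation p = 0.0454, adjusted p = 0.837). Without the 2 farthest that r was 0.36. Adamtsl1 ran opposite to oligodendrocyte precursors, with r = −0.74 (exact permutation p = 0.0108, adjusted p = 0.527) and rho = −0.68 (exact permutation p = 0.0363, adjusted p = 0.837), and r was −0.85 without the 2 farthest. It also ran opposite to microglia, with r = −0.72 (exact permutation p = 0.0221, adjusted p = 0.527) and rho = −0.67 (exact permutation p = 0.0656, adjusted p = 0.874). Without the 2 farthest that r was −0.75. None of these relations held after correction for the 120 computed.

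**Figure D4:**
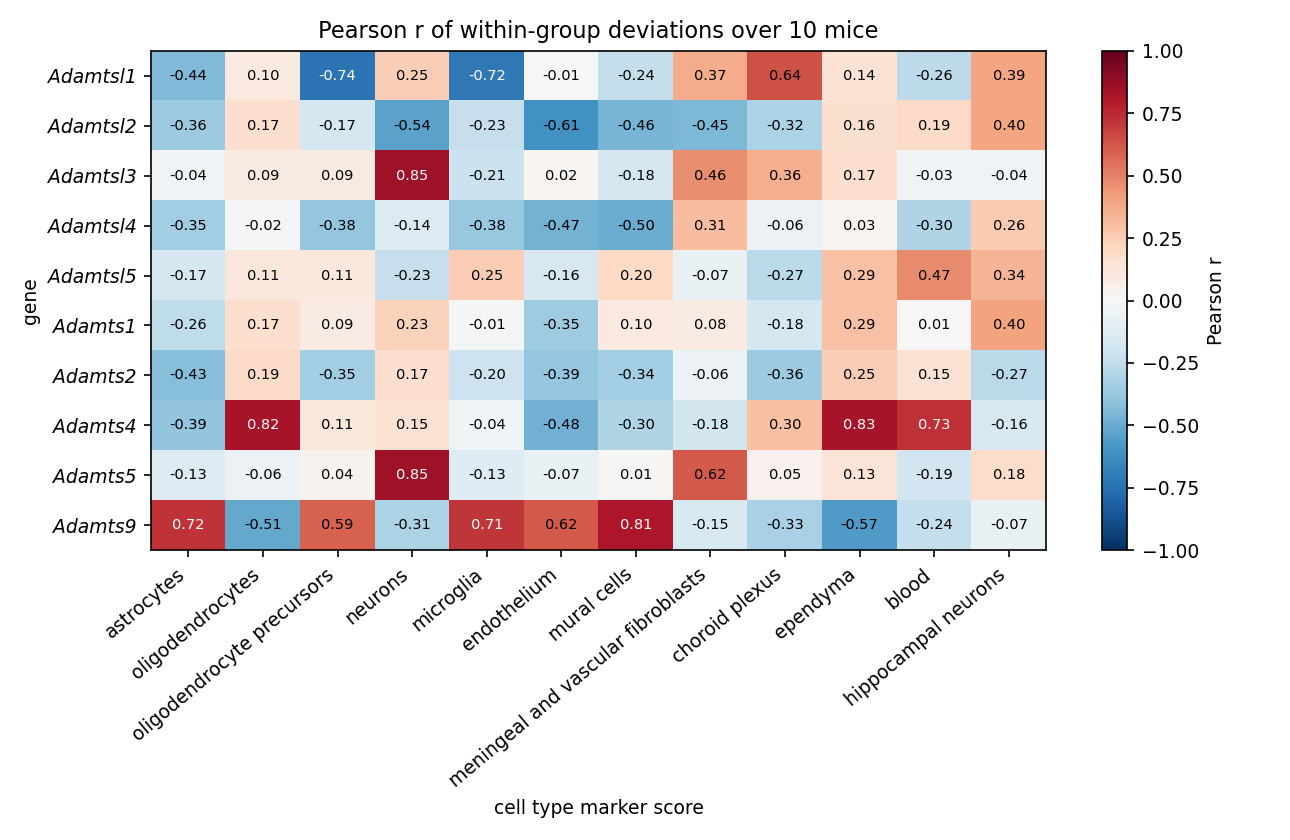
Pearson r of within-group deviations over 10 mice between each gene (rows) and each cell type marker score (columns), from −1 in blue to 1 in red. The strongest positive values join Adamtsl3 and Adamts5 with the neuronal list (0.85 each), whose genes did not move together, and none of the 120 passed after adjustment.

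Among the 10 genes themselves the correlations from mouse to mouse took both signs. Over 45 pairs r ran from −0.68 to 0.70, and 0 pairs passed after adjustment for Pearson's r or Spearman's rho. The smallest p belonged to Adamtsl2 and Adamtsl3, with r = −0.68 (exact permutation p = 0.00375, adjusted p = 0.169) and rho = −0.67 (exact permutation p = 0.0264, adjusted p = 0.700), and r was −0.42 with the 2 mice farthest from the median of Adamtsl2 left out. The chromosomal neighbours Adamts1 and Adamts5 had r = 0.54 (exact permutation p = 0.216, adjusted p = 0.935) and rho = 0.41 (exact permutation p = 0.294, adjusted p = 0.865), and r was 0.62 without the 2 mice farthest from the median of Adamts1.

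The 5 named genes outside the set whose within-group deviations were most like those of Adamtsl3 over the 10 libraries were Brwd3, Gad2, Tbpl1, Ro60 and Zbed6, with r of 0.99, 0.98, 0.97, 0.96 and 0.96, given as a description because they were picked as the highest of the 17556. Gad2, a GABA-synthesising enzyme of inhibitory neurons, is one of the 6 genes of the neuronal list. All 5 were lowest in AAV8-GFP mouse 1, as Adamtsl3 was. Without that mouse r was 0.98, 0.96, 0.95, 0.94 and 0.93 in the same order. Without AAV8-GFP mice 1 and 3 it was 0.95, 0.89, 0.85, 0.86 and 0.82. Between the groups their log2 differences were 0.10 for Brwd3, a bromodomain protein, 0.11 for Gad2, −0.012 for Tbpl1, 0.064 for Ro60 and 0.12 for Zbed6. That of Adamtsl3 was 0.76, but this contrast chose Adamtsl3, so nothing is read from the distance. None of the 5 passed (limma, adjusted p from 0.942 to 0.976).

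The substrates, partners and relatives of the 10 genes were read from lists of 61 further genes, of which 58 passed the filter on low values. By limma 0 of 58 were higher and 0 lower at an adjusted p under 0.05. An unadjusted p under 0.05 was found in 3 of 58 (Adamts10, Adamts15 and Lrp1), against 788 of all 17556 genes tested. Their median log2 difference was 0.013, and in none of the 58 did the groups separate. Of 13 tested other ADAMTS proteases, 10 had a higher mean log2 value in AAV8-irisin and 3 a lower one, with a median of 0.094. Over all genes tested 50.5% had a higher one, and nothing is read from these counts of direction in the related lists. The most abundant of these by normalised count were Adamts20, with 797 ± 72.7 (AAV8-GFP) and 803 ± 33.5 (AAV8-irisin), and Adamts10, a fibrillin-binding protease, with 828 ± 46.1 and 757 ± 56.3 and a log2 difference of −0.13 (standard error 0.061, limma adjusted p = 0.942). Adamts15, a versican-cleaving protease named after its values were seen, had normalised counts of 178, 146, 142, 146 and 171 in the AAV8-GFP mice and of 223, 156, 182, 172 and 219 in the AAV8-irisin mice. In AAV8-irisin 3 of 5 mice exceeded every AAV8-GFP mouse, with a log2 difference of 0.27 (standard error 0.12, limma adjusted p = 0.942).

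The lecticans and their partners did not separate by treatment: 0 of 11 passed, with 6 means higher, 5 lower and a median log2 difference of 0.035. The 2 most abundant were tenascin-R (Tnr), a partner of the lecticans in perineuronal nets, with normalised counts of 9141 ± 1557 (AAV8-GFP) and 9654 ± 437 (AAV8-irisin), and brevican (Bcan), a substrate of Adamts4, with 8467 ± 535 and 8067 ± 193. Log2 differences were 0.097 (standard error 0.099) for Tnr and −0.068 (standard error 0.042) for Bcan. Tnr in AAV8-GFP mouse 1 was 6422, against 9280 to 10105 in the other 4 mice of that group, and without that mouse its difference was −0.025.

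Of the 13 tested genes of fibrillin microfibrils and TGF-beta, 0 passed, and the median log2 difference was −0.042. A higher mean was found in 3 and a lower one in 10, where 50.5% of all genes tested had a higher one. Ltbp4, a latent TGF-beta binding protein, had 3042 ± 310 and 2951 ± 178 normalised counts, and Tgfb2, a TGF-beta ligand, had 2101 ± 226 and 2089 ± 48.1. The relatives of the ADAMTS-like genes, Thsd4 and Papln, had log2 differences of 0.041 and 0.031, and the former was −0.034 without AAV8-GFP mouse 1. Of 6 fibrillar procollagen genes, 0 passed, with medians near 0 (−0.013) and log2 differences of 0.073 for Col5a1 and 0.022 for Col5a2, the most abundant. Of 13 genes of inhibition, clearance and maturation, 0 passed, with 8 higher and 5 lower means and a median of 0.013. Lrp1, the endocytic receptor that clears several ADAMTS proteases, had 24344 ± 3151 and 21856 ± 1121 normalised counts, a log2 difference of −0.15 (standard error 0.068, limma adjusted p = 0.942) that was −0.072 without AAV8-GFP mouse 1. Timp2, of the family of metalloprotease inhibitors, had 11612 ± 588 and 11770 ± 430.

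**Figure D5:**
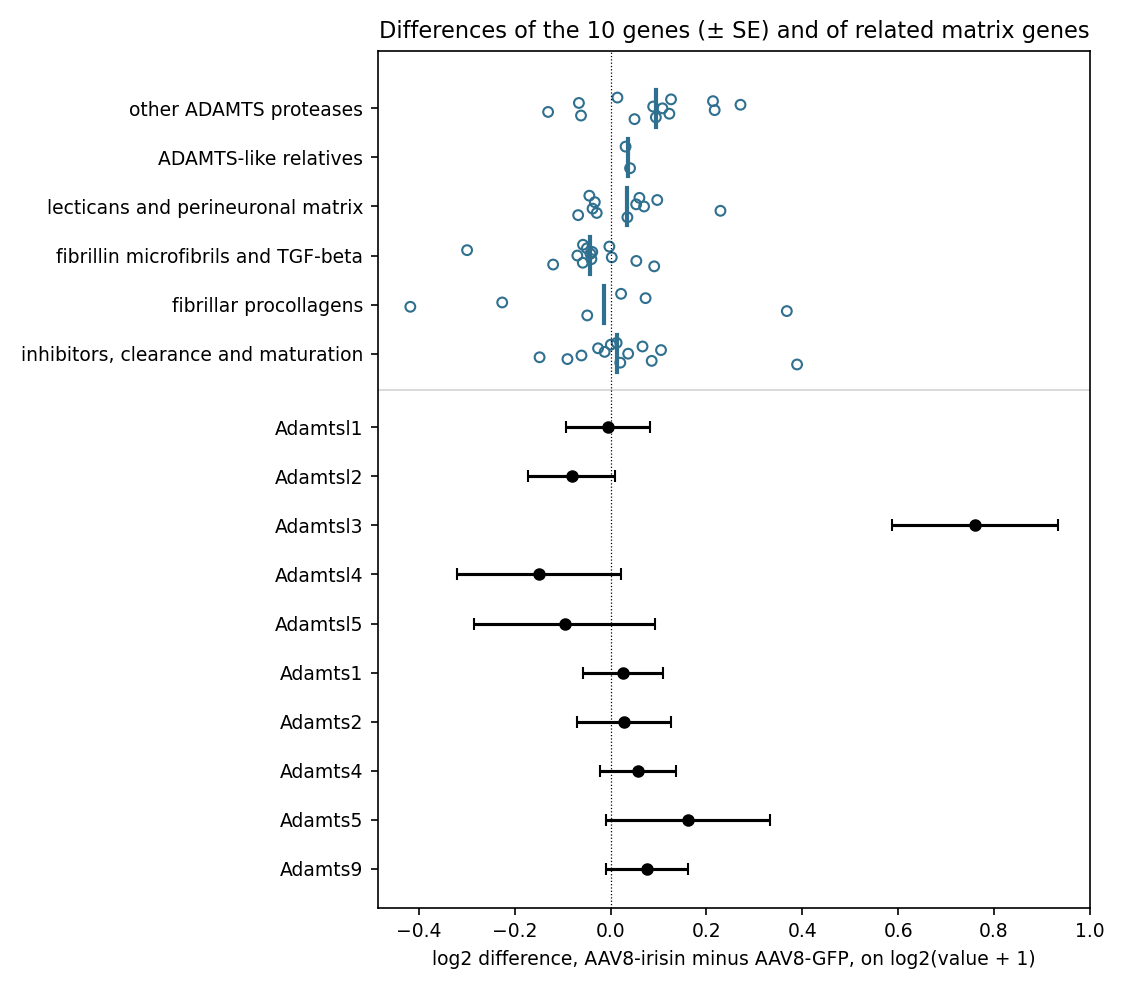
Log2 difference between AAV8-irisin and AAV8-GFP for the 10 genes (black points with standard error, below the line) and for the tested genes of 6 related lists (open circles, with the list median as a bar, above it). Adamtsl3, which this contrast chose, lies at 0.76, and the 58 related genes lie between −0.42 and 0.39, given as a description only.

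Normalised counts summed to 35284321 to 36623029 per library, with 22434 to 23035 genes above 0. Fndc5, the gene of the irisin precursor, had normalised counts of 2610 ± 74.0 (AAV8-GFP) and 2479 ± 104 (AAV8-irisin), which does not check the vector because the liver was its target. The 6 markers of hippocampal neurons were above 0 in every library, with sums of 25611 to 27858. Blood genes had summed normalised counts of 1586 to 4502 (median 3774) in the AAV8-GFP mice and 1669 to 3211 (median 1757) in the AAV8-irisin mice, with 0 of 5 genes higher on average in the latter.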

How the data were processed

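The 10 hippocampal libraries, 5 per group, were used as the labels group them, and p-values measure the spread between the separate mice that the titles name. The authors' deposited table holds DESeq2 normalised counts, a signal per gene that is never negative, as its name states. The submitters' processing notes name bcl2fastq 2.17, DESeq2 and mm10. Aligner, counter, annotation and strand setting: not given in the sources used here. For each library the commonest low value, between 0.882 and 1.172, was taken as 1 read, which gives an estimated depth of 30704436 to 41510048 reads. Within 0.1 reads only 49.0% to 71.5% of values under 20 were whole multiples of it, so reads could not be recovered and no count model was run. Within a library 1 read may be worth different values in different genes, which makes this depth, and levels compared between genes, approximate. Precision is given as the spread between mice.

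Genes that reached a value of 10 in at least 5 libraries were tested on log2(value + 1) with limma 3.58.1 in R 4.3.3 (trended eBayes, two-sided, Benjamini-Hochberg over 17556 genes). This scale understates changes of low genes. On simulated data for this comparison (17445 genes) the fit called 75% of 48 genes changed 1.5-fold and 78.7% of 47 changed 2-fold. The same simulated fit also held 50 genes changed 1.25-fold and 49 changed 4-fold. Many changed genes loosen the Benjamini-Hochberg cut-off, so these percentages do not give the power of the measured comparison, where no gene passed. Adamtsl3, with a ratio of means of 1.66, had an adjusted p of 0.942 there (limma). Correlations were computed with numpy 2.4.6. Positions, exon lengths and coding sequences came from GENCODE M21, with 97.5% of symbols matched. An exon overlap of another member is not reported here. Dates stood in place of 26 symbols. The members and lists were chosen with earlier results of these data known. Named were all 10 members, the 2 most abundant tested genes of each related list, Fndc5 and the 5 genes most like Adamtsl3, with exceptions stated. The correlations between members were added later. Alternatives were the pseudocount, filter, scaling, limma settings, a replicate block and omitted mice.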

Additional observations from a re-analysis of the deposited data

Results flagged for a closer look

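In 44 groups of 5 mice (the 10 genes and the 12 named related genes in each treatment group), 3 values lay far from the other 4 of their group, a rate that chance alone gives in about 1 of 20 groups, and all 3 belonged to AAV8-GFP mouse 1. Thsd4, an ADAMTS-like relative that binds fibrillin, had 1990 normalised counts there, below 2485 to 2648 in the other 4 mice. Tnr had 6422, below 9280 to 10100. Lrp1 had 29860, above 22070 to 23600. None of the 10 members had such a value. The same library lay farthest from its group over all genes, and why was not tested.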

How the results depend on the processing

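The counts of genes, of the 10 members and of related genes passing limma's threshold, and of correlations passing, stayed at 0 under each of the alternatives run, except that without a filter on low values 1 of 26538 genes passed, Gm49383 (adjusted p = 0.0108), named after its values were seen. It was at 0 in all 5 AAV8-irisin mice and between 2.66 and 13.9 in AAV8-GFP, and more genes were tested in that fit. Leaving out each mouse in turn gave counts of 0 to 0. The log2 difference of Adamtsl3 kept its sign in 23 of 23 alternatives, from 0.49 to 0.85. No omission of mice could turn that sign, because its groups did not overlap, so this is a description only. The log2 differences of Adamtsl2, Adamtsl4 and Adamts9 also kept their sign. The sign turned in 5 alternatives for Adamtsl1, 4 for Adamts1, 3 for Adamts2, 2 for Adamts4 and 1 each for Adamtsl5 and Adamts5, all of them omissions of mice. The mouse numbers in the titles are no pairing known from the labels: deviations of same-numbered mice correlated between −0.089 and 0.030 over genes, and 0 of 5 mice were closest to their own number. With the replicate block 0 genes passed, and the smallest adjusted p was 0.954. No batch was given in the labels. Depth per gene is unknown, and the within-group SD of log2 values was largest for Adamtsl5 and Adamtsl4 among the 10 genes.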
